A study of Mus musculus with 3 samples.

Results

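The NRF2 antioxidant target genes described here are 10 genes fixed by name: *Nfe2l2*, *Keap1*, *Nqo1*, *Hmox1*, *Gclc*, *Gclm*, *Txnrd1*, *Srxn1*, *Slc7a11* and *Txnip*. They were found on the array as the 21 probe sets that the platform annotation gives exactly 1 of these symbols, out of 34958 probe sets with 1 symbol and 45101 in all. Kidney RNA was profiled from 2 samples of cardio-renal syndrome mice and from 1 sample of uninephrectomy alone mice, all male C57BL/6J aged 16 weeks. In the cardio-renal model the abdominal aorta was constricted below the origin of the renal arteries and 2 weeks later 1 kidney was removed; RNA is from the kidney left in place, collected 6 weeks after the nephrectomy. The mice with uninephrectomy alone lost a kidney at the same point and had no band; the design text names sham operations without tying them to a sample. Removal of 1 kidney is therefore shared by both groups, and no intact or sham kidney is among the samples. Nothing in the labels ties an array to a single mouse, so replicate error here is the spread between the 2 cardio-renal samples, which may be technical.

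NRF2, the product of *Nfe2l2*, is a transcription factor that switches on genes for glutathione synthesis, thioredoxin recycling, quinone reduction and haem breakdown. In unstressed cells KEAP1 holds it for ubiquitination and degradation; oxidants and electrophiles modify KEAP1, and NRF2 then accumulates and binds antioxidant response elements with a small MAF partner. This control acts mainly on the protein, so the *Nfe2l2* and *Keap1* transcripts alone do not report NRF2 activity. In kidney the proximal tubule, which consumes much oxygen, is rich in glutathione and depends on these enzymes.

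The core of the antioxidant response element, TGACNNNGC on either strand, is shown where it was found near the start of a member gene, because it is the DNA letter pattern through which NRF2 is known to act. RefSeq windows of 300 bases, 250 before and 50 after an annotated start (GRCm38.p6), were at hand for 8 of the 10 genes in 10 windows, with *Hmox1* and *Gclc* not among them. The core was present in 4 of these windows, 1 for each of 4 genes, and in 12.4% of all 32851 windows of the same length. In the 29 bases printed for each gene, 5′ to 3′ on the gene's own strand, capitals mark the core, which reads GCNNNGTCA where it lies on the opposite strand.
*Nfe2l2* (chr2:75704885-75704913, minus strand, core beginning 240 bases before the start): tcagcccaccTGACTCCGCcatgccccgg
*Gclm* (chr3:122245413-122245441, plus strand, 134 bases before the start): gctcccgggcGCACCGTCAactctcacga
*Txnrd1* (chr10:82859104-82859132, plus strand, 92 bases before 1 of its 3 annotated starts): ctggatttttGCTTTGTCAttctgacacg
*Srxn1* (chr2:152105542-152105570, plus strand, 28 bases after the start): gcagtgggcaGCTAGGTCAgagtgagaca
A match is a description of the letters and not a binding site. The E-box CACGTG was in none of the 10 member windows and in 7.15% of all windows, and no overlap with the antioxidant core could therefore occur among members. Members that carry the core in these windows did not share 1 direction on the arrays: *Srxn1* lay higher in the cardio-renal samples for 3 of its 4 probe sets, while *Gclm* was lower in one cardio-renal sample and higher in the other.

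All values are MAS5 signals, an intensity in arbitrary units that sums up a probe set, scaled to the same trimmed mean of 500 on each array. Differences were taken on log2(signal + 28.8), which understates changes of dim probe sets, and 22493 probe sets were kept for testing because their mean log2 value reached the median of all probe sets, 7.02. The kidney label went with bright markers of its tubules. Signals summed over 10 proximal tubule markers were 140379 and 164240 in the cardio-renal arrays against 151984. All 10 were kept, as were the 7 markers of other nephron segments with a probe set. Being kept does not by itself mark a tissue, since 9 of 10 macrophage markers were kept too. Cardio-renal array 1 stood apart from both other arrays. At least 2-fold differences separated 229 kept probe sets between array 1 and uninephrectomy alone, 106 between array 2 and uninephrectomy alone, and 219 between the cardio-renal arrays. All 7 male-biased kidney genes looked up were lower in array 1 than with uninephrectomy alone, against 2 of 7 in array 2. Over all kept probe sets 46.4% and 51.5% were lower in arrays 1 and 2. This list and the female-biased one below were chosen with earlier results of these data known, so their counts only describe array 1. *Slco1a1*, an androgen-dependent transporter, had signals of 22.5 and 6064 in cardio-renal arrays 1 and 2 and of 6161 with uninephrectomy alone. Of 4 female-biased genes, 3 were higher in both cardio-renal arrays, led by *Slc7a12* at 6011 and 695 against 213. One of the 3, *Abcc4*, was higher by only 0.048 in array 2 on the log2 scale. The remaining gene, *Slc22a7*, was lower in both, at 460 and 3124 against 3985. All 10 heart muscle markers were higher in both cardio-renal arrays, with summed signals of 2491 and 1859 against 479. Only 5 of these 10 passed the filter, and *Nppa*, which did not, had just 56.0 in array 2 against 46.1. Every member result below is given for each cardio-renal array on its own, and the value of 1 array is the result without the other. Each ± value below is the SD of the 2 cardio-renal differences. It holds no variation of the single uninephrectomy array, so a small SD does not make a difference precise.

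Across the 21 probe sets of the 10 genes, banding added to uninephrectomy went with small differences of mixed sign. Higher signals in both cardio-renal arrays were measured for *Txnip* and *Nqo1* and for most probe sets of *Srxn1*, lower signals in both for *Hmox1* and *Gclc*, and opposite signs for *Gclm*, *Nfe2l2* and the brighter probe sets of *Txnrd1*. No probe set of a member was at least 2-fold higher or lower in both arrays. In limma's fit all 18 member probe sets that passed the filter had a Benjamini-Hochberg adjusted p of 0.9998, so 0 were called at 0.05, beside 0% of all 22493 kept probe sets. At an unadjusted limma p under 0.05 there were 3 of the 18, namely both *Txnip* probe sets and *Nqo1*, beside 2.78% of all kept probe sets. These 3 stand for 2 genes, because the *Txnip* probe sets share a source sequence. Their number fell without the variance trend, with no filter and without probe sets of shared-sequence design. It also fell at both gene levels, where each gene counts once. Members were also chosen with earlier results of these data known, so no excess of members is read from these shares. The lowest adjusted p of any probe set was 0.117, so this fit, with 1 residual degree of freedom, called no gene of any kind.

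**Figure D1:**
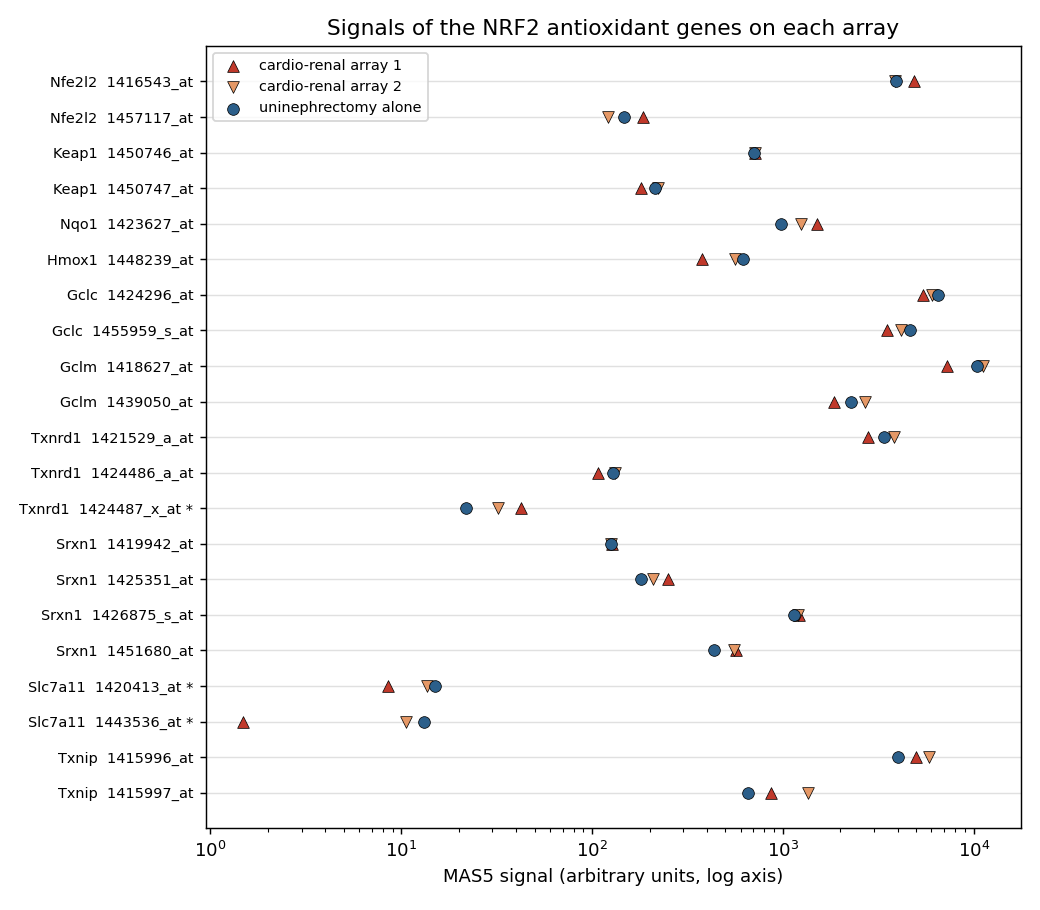
MAS5 signal (log axis) of each of the 21 member probe sets on the 2 cardio-renal arrays (triangles) and the uninephrectomy array (circles); an asterisk marks the 3 probe sets below the filter. Both *Txnip* probe sets and *Nqo1* have the circle on the left of both triangles, *Hmox1* and *Gclc* have it on the right, and *Slc7a11* lies at signals of 15.0 or less.

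Counting every member probe set, 8 of 21 were higher in both cardio-renal arrays, 5 were lower in both and 8 had opposite signs. Among the 18 that passed the filter the counts were 7, 3 and 8, and over all kept probe sets the shares were 31.8% higher, 29.7% lower and 38.5% opposite. Both differences are taken from the same uninephrectomy array, so agreement in sign can come from that array alone. The median difference of the 18 was 0.012 in array 1 and 0.056 in array 2, beside 0.020 and -0.0062 over all kept probe sets. Another description asks whether the nearer cardio-renal array lay further from uninephrectomy alone than the cardio-renal arrays lay from each other. That held for 4 of the 18 on the higher side (*Nqo1*, 1 probe set of *Txnip* and 2 of *Srxn1*) and for 0 on the lower side, beside 15.2% and 12.7% of all kept probe sets. An odd value of the uninephrectomy array alone can also meet this rule. A small gap meets it at small differences, as for *Srxn1* 1426875_s_at at 0.079 and 0.062. At least 2-fold differences in both arrays were seen for 0 members in either direction, beside 0.142% higher and 0.0533% lower over all.

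Among the regulators, *Nfe2l2* was highest in cardio-renal array 1 and lowest in array 2 by both of its probe sets. Its bright probe set 1416543_at had signals of 4889.6 and 3869 in cardio-renal arrays 1 and 2, against 3893 with uninephrectomy alone. Array 1 was the high sample, and array 2 matched the control to within 0.01 on the log2 scale. The mean difference was 0.16 ± 0.24 (SD, n = 2; limma SE 0.19). The dim probe set 1457117_at had 185 and 122 against 147, so that array 1 lay above and array 2 below uninephrectomy alone. For *Keap1*, the adaptor that delivers NRF2 to the CUL3 ubiquitin ligase, the brighter probe set 1450746_at had 710.2 and 716 against 708. These 3 signals differed by less than 2%, and the log2 differences of 0.0053 and 0.017 were small beside the limma SE of 0.18; the sign in array 1 turned to -0.013 after quantile normalization. The dimmer 1450747_at had 180.1 and 223 against 214, with opposite signs.

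*Nqo1* encodes the quinone reductase that is among the most used readouts of NRF2 activity. Its single probe set had signals of 1516 and 1249 in the cardio-renal arrays and of 982 with uninephrectomy alone. Both cardio-renal samples were above the control, by ratios of 1.54 and 1.27, and array 1 was the higher of the pair. On the log2 scale the differences were 0.61 and 0.34, a mean of 0.48 ± 0.19 (SD, n = 2), against a gap of 0.27 between the cardio-renal arrays. The unadjusted limma p was 0.0341 and the adjusted p 0.9998. The direction was the same with either offset tried and after quantile normalization.

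*Hmox1*, the inducible haem oxygenase that breaks haem into biliverdin, iron and carbon monoxide, ran the other way. Its signals were 377 and 559.7 in the cardio-renal arrays, against 619 with uninephrectomy alone. Array 1 was well below the other samples, whereas array 2 was 0.14 lower on the log2 scale. The mean difference of -0.41 ± 0.38 (SD, n = 2) was smaller than the gap of 0.54 between the cardio-renal arrays, and the unadjusted limma p was 0.146. Macrophages are a known source of *Hmox1*, and of 9 kept macrophage markers 6 were lower and 3 higher in both cardio-renal arrays. Summed signals over 10 markers were 6349 and 6917 against 7532, with *Csf1r* the largest part (2845 and 3683 against 3708). Among those lower, *Lyz2*, the macrophage lysozyme, had 950.3 and 790.0 against 1332. The 3 higher were *C1qb* (576 and 587 against 464), *Cd14* (304 and 316 against 253) and *Cd68* (118 and 132 against 108). The markers thus had no shared direction, and no marker was listed at 0. Fewer cells of a type and less RNA per cell cannot be told apart in whole kidney, and the part of these markers in the *Hmox1* values was not tested.

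The subunits of glutamate-cysteine ligase, which makes the rate-limiting step of glutathione synthesis, did not lie alike in both samples. For the catalytic subunit *Gclc*, probe set 1424296_at had 5414 and 6067 in the cardio-renal arrays against 6458, and 1455959_s_at, whose design shares sequence with other transcripts, had 3491 and 4145 against 4632. Both probe sets placed array 1 lowest and the uninephrectomy sample highest, with mean log2 differences of -0.17 ± 0.12 and -0.28 ± 0.17 (SD, n = 2). The gaps between the cardio-renal arrays, 0.16 and 0.25, exceeded the difference of array 2 from the control in both cases. For the modifier subunit *Gclm*, which raises the activity of the catalytic one, 1418627_at had 7239.8 and 11246 against 10394, and 1439050_at had 1844 and 2694 against 2279. Array 1 was the lowest sample and array 2 the highest for both *Gclm* probe sets. Their log2 differences were -0.52 and 0.11 for the first and -0.30 and 0.24 for the second, so the means of -0.20 and -0.031 describe no shared direction. *Slc7a11*, the cystine-glutamate exchanger that brings in cystine for glutathione, was dim on all arrays: 1420413_at had 8.56 and 13.6 against 15.0, and 1443536_at had 1.48 and 10.6 against 13.2. All of these lay below the 25th percentile of their arrays (27.7 or more), neither probe set passed the filter, and no difference is read from them.

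**Figure D2:**
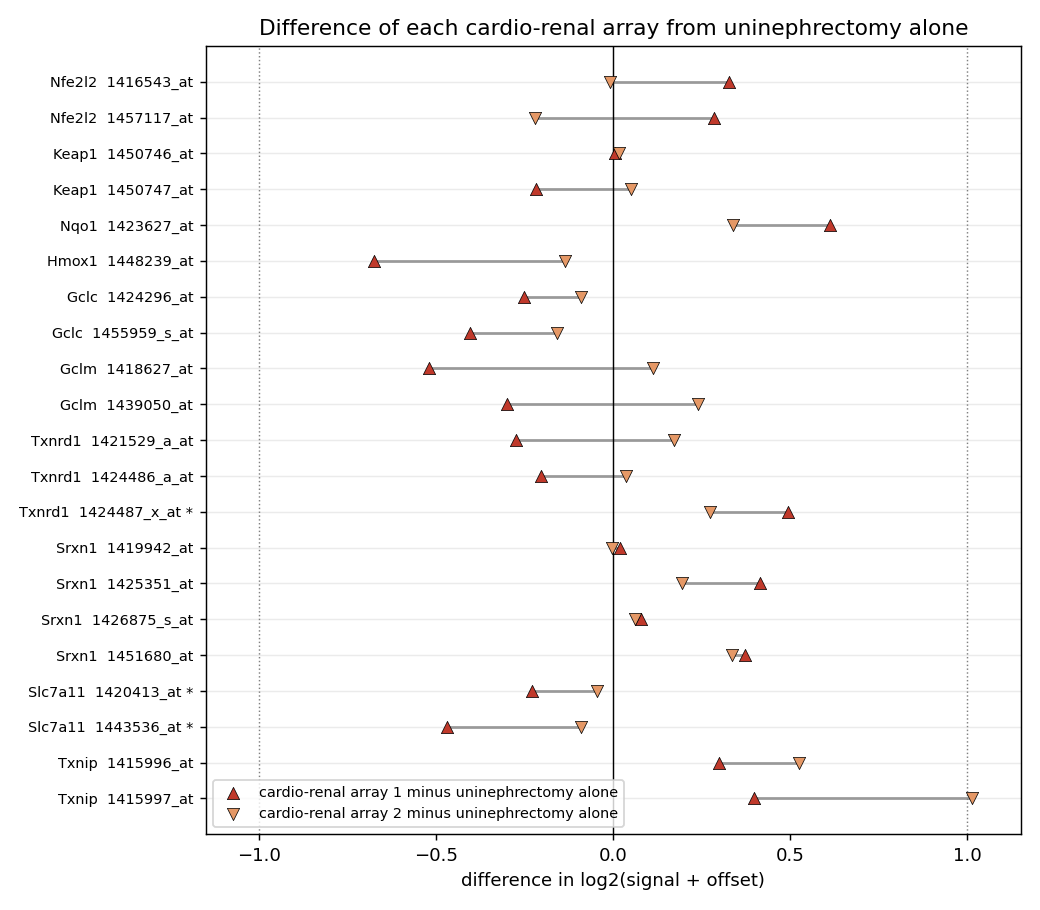
Difference in log2(signal + 28.8) of each cardio-renal array from uninephrectomy alone for the 21 member probe sets; the grey line is the gap between the cardio-renal arrays, dotted lines mark a 2-fold difference, and an asterisk marks probe sets below the filter. For *Gclm*, *Nfe2l2* and 2 of the 3 *Txnrd1* probe sets the grey line crosses 0, while for *Nqo1* and *Txnip* it lies to the right of 0.

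In the thioredoxin branch, *Txnrd1*, the cytosolic selenoenzyme that reduces thioredoxin with NADPH, had the same order of samples as *Gclm*. Its bright probe set 1421529_a_at had 2788 and 3808 in the cardio-renal arrays against 3380.2, and 1424486_a_at had 108 and 132 against 128. Array 1 was lowest and array 2 highest for both, with mean differences of -0.052 ± 0.32 and -0.084 ± 0.17 (SD, n = 2). The dimmest probe set, 1424487_x_at, which may cross-hybridise by its design and did not pass the filter, had 42.3 and 32.2 against 21.7, with array 1 highest rather than lowest.

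*Srxn1* encodes sulfiredoxin, which rescues overoxidised peroxiredoxins. Probe set 1451680_at had 569.8 and 554 in the cardio-renal arrays against 434 with uninephrectomy alone, the closest agreement between the cardio-renal samples among the members that differed by more than 0.3. Both samples lay above the control, by 0.37 and 0.33 on the log2 scale (mean 0.35 ± 0.027, SD, n = 2; limma SE 0.19; unadjusted p 0.104; adjusted p 0.9998). Probe set 1425351_at, drawn from the same source sequence in the platform table, had 249 and 209 against 179, a mean difference of 0.30 ± 0.16. The brightest probe set 1426875_s_at, by contrast, had 1214 and 1199 against 1148, a mean of only 0.070 ± 0.012. Its design shares sequence with other transcripts, so its signal may not be *Srxn1* alone. The dim 1419942_at had 128 and 125 against 126. The *Srxn1* probe sets thus disagreed in size, from 0.0079 to 0.35, and the direction of 1419942_at turned negative in both arrays after quantile normalization.

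*Txnip* encodes the arrestin-fold protein that binds and inhibits thioredoxin and limits glucose uptake; its transcription is driven mainly by the glucose-sensing factors MondoA and ChREBP, and it is not a classical NRF2 target. Probe set 1415996_at had 4960.4 and 5803 in the cardio-renal arrays against 4026, and 1415997_at had 869.9 and 1347 against 653. Both probe sets, which share a source sequence, put array 2 highest and the uninephrectomy sample lowest. The ratios were 1.23 and 1.44 for the first probe set and 1.33 and 2.06 for the second. Mean log2 differences were 0.41 ± 0.16 and 0.71 ± 0.43 (SD, n = 2), with gaps between the cardio-renal arrays of 0.23 and 0.61. For 1415997_at the gap was larger than the difference of array 1 from the control, 0.40. Unadjusted limma p-values were 0.0482 and 0.0238, and both adjusted p-values were 0.9998. *Txnip* is also expressed in heart, and the heart markers named above were higher in both cardio-renal arrays. Their summed signal was larger in array 1 than in array 2 (2491 and 1859), whereas *Txnip* was higher in array 2. The part of the heart markers in the *Txnip* values was not tested.

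**Figure D3:**
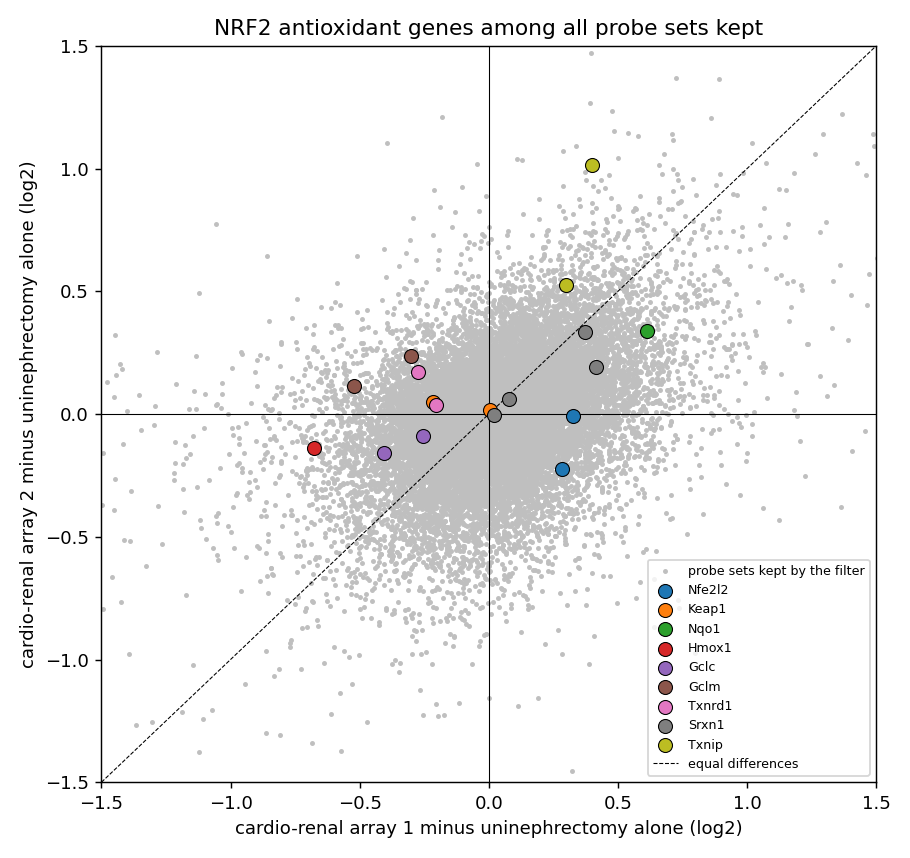
Log2 difference from uninephrectomy alone in cardio-renal array 1 (x) against array 2 (y) for the kept probe sets (grey; 96 lie outside the range drawn) and the 18 kept member probe sets (coloured by gene); the dashed line marks equal differences. Because both axes subtract the same uninephrectomy array, a tilt along the dashed line is built in, and the members lie on both sides of 0.

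The members also split by which cardio-renal array was lower. Array 1 lay below array 2 for 13 of the 21 probe sets and for 11 of the 18 kept, beside 44.9% of all kept probe sets. This was the case for every probe set of *Keap1*, *Hmox1*, *Gclc*, *Gclm*, *Slc7a11* and *Txnip* and for 2 of 3 of *Txnrd1*, whereas array 1 was above array 2 for every probe set of *Nfe2l2*, *Nqo1* and *Srxn1*. Of the 18 kept, 8 were lower in array 1 than with uninephrectomy alone and 6 in array 2, beside 46.4% and 51.5% of all kept probe sets. Array 1 is the sample in which male-biased genes were low, and the part of that shift in the member values was not tested.

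Other redox genes were taken from 9 lists outside the members, with each gene represented by its probe set of highest mean signal. Of 109 genes, 98 had a probe set and 88 were kept; 31 were higher in both cardio-renal arrays, 18 lower and 39 of opposite sign, and limma's adjusted p called 0. As shares these were 35.2% higher and 20.5% lower, beside 30.7% and 29.7% of 11144 kept genes. The same shares over all kept genes stand beside the counts of each list below, which cover few genes and use the same uninephrectomy array. The medians over the 88 were 0.021 in array 1 and 0.039 in array 2, beside 0.0085 and -0.0028 over all kept genes.

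The list of quinone, aldehyde and other NRF2 targets counted 13 kept genes, of which 9 were higher in both cardio-renal samples, 1 lower and 3 of opposite sign (medians 0.29 and 0.13). Over all kept genes 30.7% were higher and 29.7% lower. Among the 9, *Nqo2* and *Cbr1* were at only 0.016 and 0.036 in array 2, and *Ptgr1* at 0.021 in array 1. *Gsta3*, a glutathione transferase, had signals of 4582 and 3695 against 2901, a mean log2 difference of 0.50 ± 0.22 (SD, n = 2), and its other kept probe set was at 0.28. *Ugdh*, which makes UDP-glucuronate, had 4955 and 4763 against 4045 (0.26 ± 0.040). The gene lower in both was *Osgin1*, an oxidative stress-induced growth inhibitor, with 1424 and 1269 against 2155 and a mean of -0.67 ± 0.12. The genes of opposite sign were the transferase *Gsta4* (1.12 in array 1 and -0.43 in array 2), the carbonyl reductase *Cbr3* (0.70 and -0.43) and the epoxide hydrolase *Ephx1* (0.29 and -0.22), all high in array 1.

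Among genes of NRF2 regulation, 3 of 13 were higher in both arrays, 3 lower and 7 opposite, with medians of -0.099 and 0.0035. The small MAF partner genes had opposite signs, with *Mafk* at 0.16 ± 0.0046 and *Mafg* at -0.18 ± 0.077 (SD, n = 2). These SDs leave out the variation of the uninephrectomy array, so they do not show that the 2 genes differ. *Gsk3b*, a kinase that marks NRF2 for degradation, was at -0.16 ± 0.074, with 1 of its 5 other kept probe sets of opposite sign. Genes of glutathione synthesis and use had 4 of 16 higher, 4 lower and 8 opposite, and medians of -0.16 and 0.038. *Gpx6*, a glutathione peroxidase, had 2574 and 2206 against 1654 (0.52 ± 0.16), whereas *Chac1*, which degrades glutathione, had 96.3 and 163 against 220.1 (-0.69 ± 0.43) and *Gpx7*, a peroxidase of the endoplasmic reticulum, was at -0.56 ± 0.38.

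Of 11 kept genes of the thioredoxin and peroxiredoxin system, 6 were higher in both samples and 1 lower (medians 0.10 and 0.087). *Sesn2*, a stress-induced sestrin, had 589 and 473 against 319, a mean difference of 0.68 ± 0.21 (SD, n = 2), and its other kept probe set was at 0.54. Mitochondrial thioredoxin, *Txn2*, was at 0.17 ± 0.0040, and the methionine sulfoxide reductase *Msrb1* at -0.36 ± 0.23. NADPH supply had 2 of 8 higher and 1 lower, with *Pgls* of the pentose phosphate pathway at 0.18 ± 0.11 and the isocitrate dehydrogenases *Idh2* and *Idh1* at 0.099 ± 0.025 and -0.068 ± 0.014, although the other kept probe sets were at 0.26 for *Idh2* and 0.050 for *Idh1*. Haem and iron handling had 4 of 10 higher and 2 lower; the biliverdin reductase *Blvra*, which acts after haem oxygenase, was at 0.12 ± 0.062, the porphyrin transporter *Abcb6* at 0.13 ± 0.026 and the transferrin receptor *Tfrc* at -0.13 ± 0.088, with its other kept probe set at -0.55.

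Superoxide dismutases and catalase had 0 of 5 higher in both arrays and 1 lower, *Sod1*, at -0.19 ± 0.24 (SD, n = 2), with 1 of its 3 other kept probe sets of opposite sign. NADPH oxidase genes, which make superoxide, had 1 of 5 higher (*Ncf1*, 0.056 ± 0.030) and 2 lower. *Rac2*, a GTPase of the phagocyte oxidase, had 131 and 110.4 against 224 (-0.76 ± 0.14), and the phagocyte catalytic subunit *Cybb* was at -0.28 ± 0.10, beside the macrophage markers given above, whose part was not tested. Among relatives of *Txnip* and its glucose-sensing regulators, 2 of 7 were higher and 3 lower. The arrestin-domain genes *Arrdc2*, with 112 and 173 against 91.2 (0.49 ± 0.37), and *Arrdc3*, with 3388 and 3538 against 2948 (0.23 ± 0.044), were higher in both samples. Their relatives were not: *Arrdc4* had 373 and 271 against 379 (-0.23 ± 0.30) and *Arrdc1* had opposite signs, 0.14 and -0.062. *Mlx*, the partner of MondoA and ChREBP, was at -0.21 ± 0.074, with its other kept probe set at -0.079. No gene of the 9 lists passed the adjusted p in limma's fit.

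**Figure D4:**
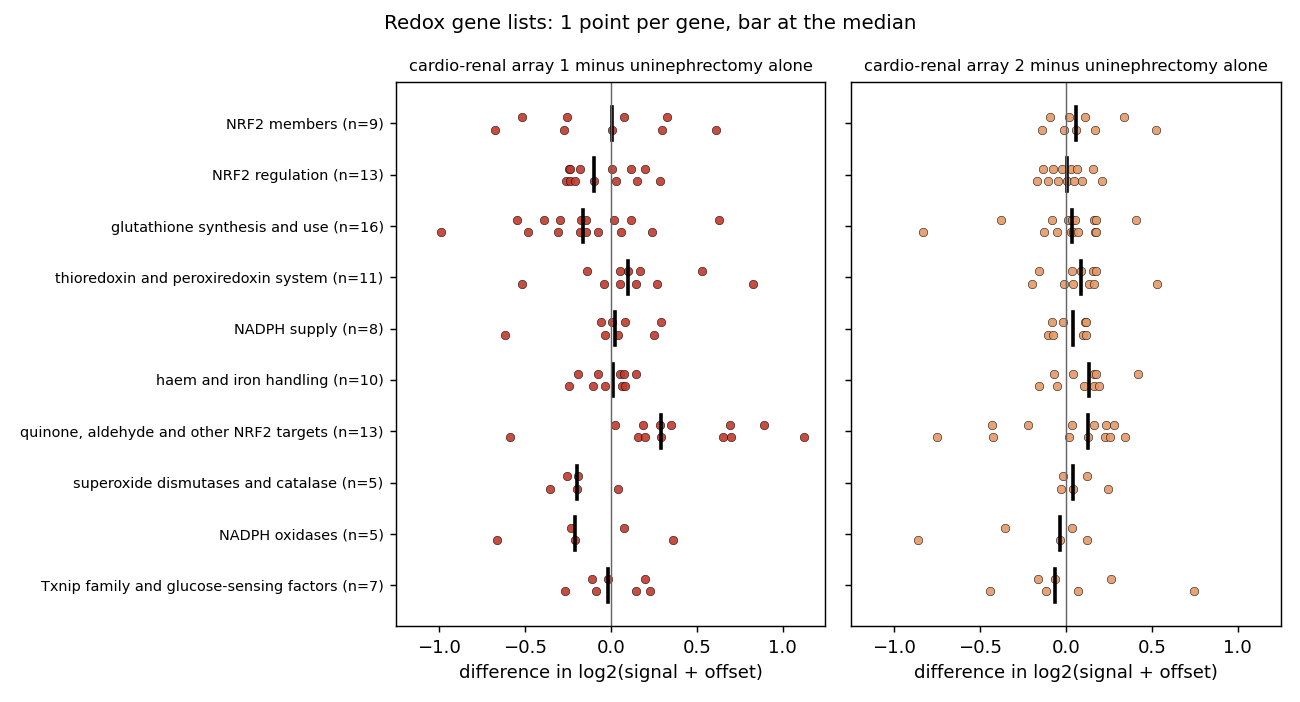
Log2 difference from uninephrectomy alone in cardio-renal array 1 (left panel) and array 2 (right panel) for the kept genes of the member list and 9 further redox lists, 1 point per gene with a bar at the list's median. The list of quinone, aldehyde and other NRF2 targets has medians of 0.29 and 0.13, and superoxide dismutases and catalase have medians of -0.20 and 0.039.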

How the data were processed

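The deposited values are intensities: MAS5 signals per probe set on a linear scale, made by the authors with MAS5 per the submitters' processing notes, from biotin-labelled cRNA of 250 ng total RNA per the labels' protocols. Neither its version nor detection calls are given in the sources used here. Each array's mean, trimmed by 2% at each end, was 500, so no further normalization was applied. Of 45101 probe sets, 932 with several symbols and 9160 without one here were not named; 64 controls, 13 of which carry a symbol, stayed out of the fit. The offset of 28.8 is the middle of the arrays' 25th percentiles. Non-control probe sets went into 1 fit over all 3 arrays in R 4.3.3 with limma 3.58.1 (lmFit, eBayes with trend, two-sided, Benjamini-Hochberg at 0.05). The fit assumes that the lone uninephrectomy array varies like the cardio-renal pair. It was also run on simulated arrays whose noise was drawn from the gap between the cardio-renal arrays. That run builds in the same assumption and cannot test it. Other settings tried were offsets of 1 and 100, quantile normalization, 2 other filters, probe set design, variance models, gene-level values and leaving out each cardio-renal array. The design setting dropped every probe set with a letter code before _at, with _a_at, _s_at and _x_at treated alike. These are called shared-sequence here, whether or not the sequence is shared with another gene. Members are given in full; from the other lists, up to 3 genes were named by the smaller of the 2 arrays' differences of equal sign. Members and lists were chosen with earlier results of these data known. The number of arrays limits the precision.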

Additional observations from a re-analysis of the deposited data

How the results depend on the processing

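No paired analysis was possible because there is 1 uninephrectomy array and the replicate numbers follow accession order. With 0 probe sets past the adjusted p, 625 had an unadjusted limma p under 0.05; every other setting also gave 0 (231 to 1840 unadjusted) except that 3 passed without shared-sequence probe sets, the heart markers *Actc1* and *Myh6* and the unnamed 1460710_at, picked out after their values were seen. The lowest adjusted p of a member was between 0.9997 and 1 in every fit. Counts of probe sets at least 2-fold higher and lower in both cardio-renal arrays, 32 and 12, became 13 and 6 with an offset of 100, 190 and 60 with no filter, 4 and 6 in the upper quartile, 15 and 6 with 1 probe set per gene, and 9 and 4 with the mean of probe sets; 5 were lower without shared-sequence probe sets. Leaving out a cardio-renal array gave 59 to 110 higher and 47 to 119 lower. Member probe sets higher in both, 7, became 4 genes at either gene level and 10 to 12 when 1 array was left out; those lower, 3, became 5 with no filter and 6 to 8 when 1 array was left out. Their median of 0.0095 became 0.082 with the mean of probe sets per gene, and 0.012 to 0.056 when 1 array was left out. Signs turned after quantile normalization for *Nfe2l2* 1457117_at (-0.010) and *Srxn1* 1419942_at (-0.033). Leaving out 1 array gave -0.0090 to 0.33 and -0.22 to 0.29 for *Nfe2l2*, -0.22 to 0.050 for *Keap1* 1450747_at, -0.52 to 0.11 and -0.30 to 0.24 for *Gclm*, -0.28 to 0.17 and -0.20 to 0.036 for *Txnrd1*, and -0.0032 to 0.019 for *Srxn1* 1419942_at. The causes were not tested, apart from the smaller numbers of probe sets or arrays that some settings have by construction. Of 63 single probe set values under another offset or quantile normalization, 57 kept their direction and their side of the threshold or moved by less than 1 SD, and 4 moved by more, all from dim probe sets under another offset: *Slc7a11* (-0.43 and -1.40) and *Txnrd1* 1424487_x_at (0.17 and 0.74). For kept probe sets only the direction was in effect checked, whatever the size of the move, because no member came near the threshold in any fit. Of 42 values with 1 array left out, 8 turned sign, 20 moved by over 1.5 times and 14 by less; *Hmox1*, for example, was at -0.14 without array 1 and -0.68 without array 2. Signals near the 25th percentile, as for *Slc7a11*, limit what can be measured.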
